A study of Mus musculus with 11 samples.

Results

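Rab genes encode small GTPases of the Ras superfamily that mark and move membrane compartments, and the 59 mouse genes described here were chosen by name: protein-coding RefSeq genes whose symbol is Rab, then a number, then at most 1 letter. They are 59 of 21887 protein-coding, non-mitochondrial genes in the annotation. Accessible chromatin at these genes was read from ATAC-seq peak lists of alveolar macrophages, the resident macrophages of the lung airspaces. A peak was called at or near a gene end for 37 of them (62.7%) in naive mice. It was called for 33 (55.9%) on day 15 after tumour cell injection and for 17 (28.8%) on day 30. Of all protein-coding genes, 34.7%, 29.6% and 12.8% had one. No Rab gene had such a peak in a tumour list without having one in the naive list. Of all genes without a naive one, 3.04% had one at day 15 and 0.245% at day 30. In the naive list alone were 4 Rab genes (6.78%, against 6.83% of all genes), among them Rab7.

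A Rab protein works as a switch: bound to GTP it sits on a membrane and recruits effectors, and bound to GDP it is held in the cytosol. Activators (guanine nucleotide exchange factors) load GTP, GTPase-activating proteins switch the Rab off, prenyl groups added by a transferase anchor it, and GDP dissociation inhibitors take it back off the membrane. In macrophages, a new phagosome carries Rab5 first and exchanges it for Rab7 as it matures toward fusion with lysosomes.

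The study sorted tissue-resident macrophages from the lungs of C57BL/6 mice in 3 groups. In the groups of day 15 (4 samples) and day 30 (3 samples), KP or KP-GFP cells had been injected into the tail vein 15 or 30 days earlier and had formed lung tumour foci, while the control mice were naive (4 samples) and are called wild type. The labels do not spell out KP or say which mice received the GFP cells, and they give neither the age of the mice nor whether a sample pooled several. Each group had a single deposited peak list shared by all of its samples, so no spread between samples could be computed and no test was made: every difference below is between 2 lists. The design text gives triplicates, which differs from the 4, 4 and 3 samples that are labelled.

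The lists held 14731 (naive), 10861 (day 15) and 3352 (day 30) peaks. The strength of a peak is given as its summit pileup, the number of sequenced tags covering its highest base, recovered from the fold and p-value that the authors' peak caller wrote. The depth behind the lists, recovered the same way, was 39.2, 93.5 and 82.2 tags per 10 kb of genome, so both tumour lists held fewer peaks than the naive list and were deeper. In lists called from bulk cells, fewer cells with an open region and less opening per cell cannot be told apart. Of 14 alveolar macrophage marker genes, 7 (naive), 5 (day 15) and 1 (day 30) had a peak within 1000 bp of a gene end, which is 50.0%, 35.7% and 7.14%, against 34.7%, 29.6% and 12.8% of all protein-coding genes, and the summed pileups were 121, 105 and 16 tags. Bhlhe40 had 32, 23 and 16 tags in the 3 lists. Mertk, Csf2ra and Csf2rb had 26, 23 and 20 tags at day 15, against 24, 24 and 13 in the naive list, and none at day 30. Itgax, Pparg and Ear2 had 8, 9 and 11 tags in the naive list alone, and Mrc1 had 13 at day 15 alone. The other 6, Siglecf, Marco, Car4, Fabp4, Ear1 and Chil3, had none in any list. Markers of lung epithelium or tumour cells (8 genes) and of endothelium or fibroblasts (8 genes) had none in any list. Of 8 interstitial or monocyte-derived macrophage markers, Itgam alone had such a peak (15 tags at day 15 and 9 in the naive list). Of 7 neutrophil markers S100a8 had 13, 17 and 12 tags in the 3 lists, and of 10 T, NK or B cell markers Cd3d had 19 tags at day 15 and 12 in the naive list. The part of cell makeup, depth and signal over background in the results below was not tested.

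A peak no more than 1000 bp from either end of a gene is called its boundary peak. Such a peak was present at 37 Rab genes (62.7%) in the naive list, 33 (55.9%) in the day 15 list and 17 (28.8%) in the day 30 list. Among all protein-coding genes the shares were 34.7%, 29.6% and 12.8%, so the Rab share was the higher one in each list. Where the strand was known the peak lay at the start of the gene in 32 of 32 Rab genes in naive cells, 28 of 28 on day 15 and 14 of 14 on day 30. In 33, 28 and 14 genes the gene end lay within the peak itself. The peaks just inside and just outside the 1000 bp limit were those of Rab26, 770 bp away, and Rab19, 1080 bp away, in the naive list. In the day 15 list they were Rab26 (761 bp) and Rab40b (1387 bp), and in the day 30 list Rab26 (794 bp) and Rab3a (2293 bp).

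**Figure D1:**
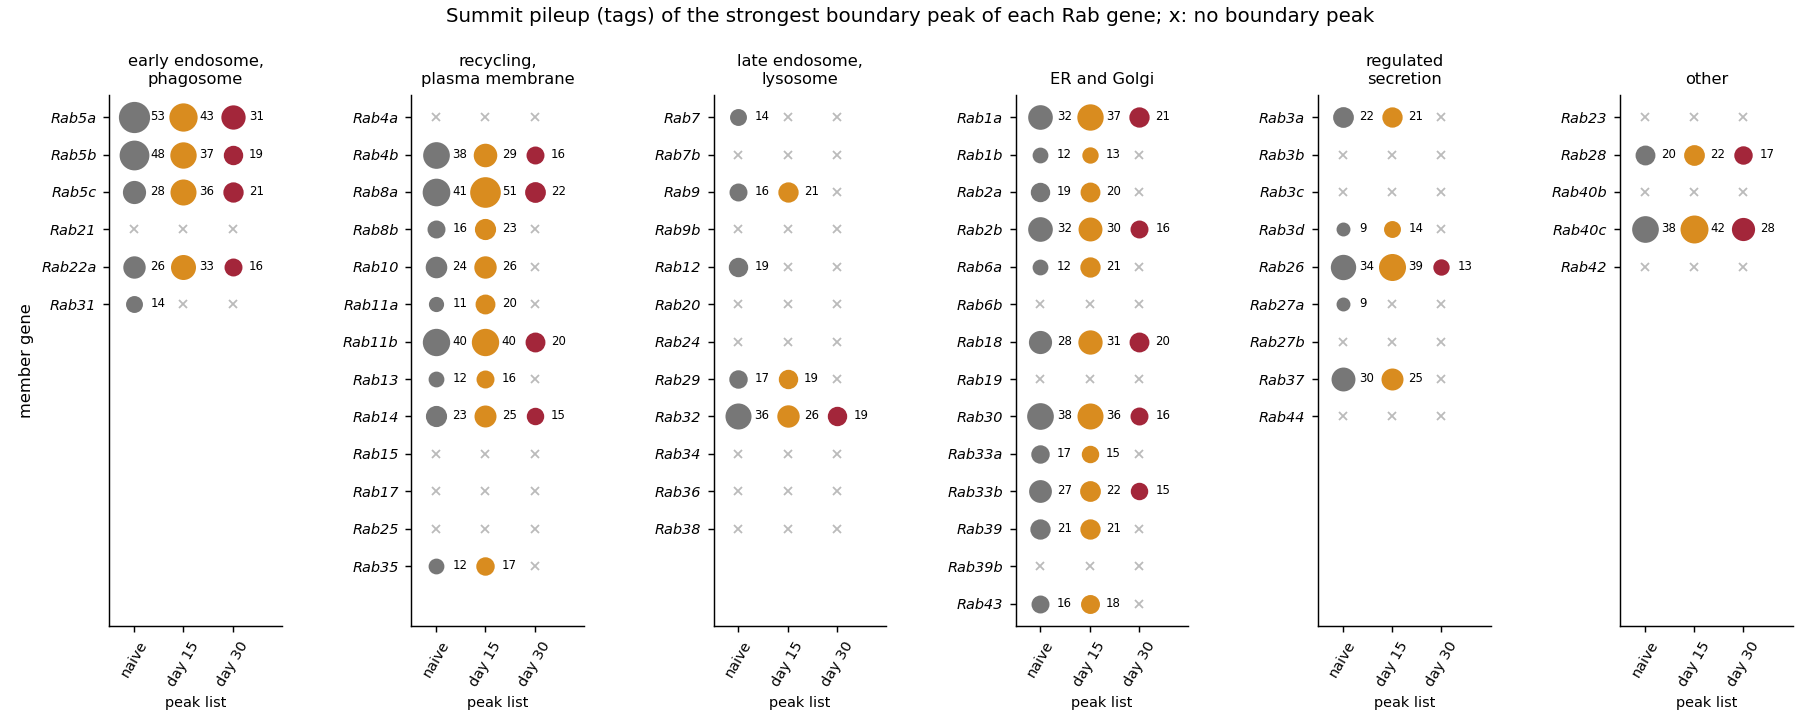
Summit pileup in tags of the strongest boundary peak of each of the 59 Rab genes, by role (panels) and peak list (x axis: naive, day 15, day 30); circle area follows the number printed beside it and a cross marks no boundary peak, with 1 list per group and so no error bars. Boundary peaks were present at 37, 33 and 17 genes, and no gene has a circle at day 15 or day 30 without one in the naive list.

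Compared with the naive list, 33 of the 37 Rab genes kept their boundary peak at day 15 (89.2%), against 79.6% of all genes that had one in naive cells. The 4 lost were Rab7, Rab31, Rab12 and Rab27a. None of the other 22 Rab genes gained one, where 3.04% of all genes without a naive boundary peak did. All 33 kept peaks overlapped their naive counterparts. Among the strongest 3352 peaks of every list, a setting that gives the lists equal length, 16 Rab genes were kept, 2 were lost (Rab32 and Rab37) and 2 were gained (Rab14 and Rab9), and the 4 genes above were in none of the lists. When only peaks with a −log10 q of at least 5 were used, Rab3d and Rab11a counted as gained, since their naive peaks missed that limit. At that limit Rab1b was lost at day 15 and Rab27a had no naive peak, so the number lost stayed at 4.

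Compared with the naive list, 17 of 37 Rab genes kept their boundary peak at day 30 (45.9%), against 36.5% of all genes, 20 lost it and 0 gained one, against 0.245% of all genes. From day 15 to day 30, 17 of 33 were kept (51.5%), against 42.1% of all genes, 16 were lost and 0 were gained, against 0.506%. These comparisons share lists, and the 17 genes are the same in both. With a −log10 q of at least 5, 15 Rab genes were kept at day 30, since Rab22a and Rab26 dropped out. With lists of equal length 15 of 18 naive Rab genes were kept at day 30 (83.3%, against 67.9% of all genes), 3 were lost and Rab14 and Rab28 were gained, so the number lost at day 30 depended on list length.

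By pattern over the 3 lists, 17 Rab genes (28.8%, against 12.4% of all genes) had a boundary peak in all of them. Another 16 (27.1%, against 15.2%) had one in the naive and day 15 lists, and 4 (6.78%, against 6.83%) in the naive list alone. The remaining 22 (37.3%, against 63.2% of all genes) had one in none. The patterns naive and day 30, day 15 alone, day 15 and day 30, and day 30 alone held 0 Rab genes. Of all genes, 0.265%, 1.92%, 0.0685% and 0.0914% had these patterns.

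The role groups hold 5 to 14 genes each, and differences between them were not tested. Beside their counts stand the shares of all 59 Rab genes (62.7%, 55.9% and 28.8%) and of all genes (34.7%, 29.6% and 12.8%). Among Rabs of the early endosome and phagosome, boundary peaks were called at 5 of 6 genes in naive cells. On day 15 and on day 30 they were called at 4. All 3 Rab5 genes, whose products drive fusion of early endosomes and early phagosomes, were present in every list. Rab5a had 53 tags in naive cells, 43 on day 15 and 31 on day 30. Rab5b had 48, 37 and 19 tags in the same order, and its peak also lay within 1000 bp of the end of Pmel. These were the 2 highest naive pileups among the boundary peaks of Rab genes, and both were highest in the naive list. Rab5c had 28, 36 and 21 tags, and Rab22a, which acts between early and recycling endosomes, had 26, 33 and 16, with the highest raw pileup of each at day 15. Rab31, a close relative of Rab22a that works between the trans-Golgi and endosomes, had 14 tags in the naive list and no boundary peak later. Rab21, which carries integrins through endosomes, had no boundary peak, although a peak of 13 tags at day 15 and 14 in the naive list lay 1758 and 1673 bp from its end and overlapped a RefSeq promoter window of the gene.

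For Rabs of recycling and the plasma membrane the numbers were 9 of 13 genes in naive cells, the same 9 on day 15 and 4 on day 30. Rab8a, which directs vesicles to the cell surface, had 41 tags in naive cells, 51 on day 15 and 22 on day 30, the highest day 15 pileup among the boundary peaks of Rab genes. Rab11b, of recycling endosomes, had 40, 40 and 20 tags. Rab4b, of fast recycling, had 38, 29 and 16 tags, with a peak that also lay at Mia. Rab14, found on phagosomes and between Golgi and endosomes, had 23, 25 and 15 tags. The other 5 were absent at day 30. Rab10, which delivers receptors to the surface, had 26 tags at day 15 and 24 in the naive list. In the same order, Rab8b had 23 and 16, and Rab35, of fast recycling and cytokinesis, had 17 and 12. Rab13, a Rab of cell junctions, had 16 and 12, and its peak was shared with the ribosomal protein gene Rps27 at equal distance. Rab11a had 20 and 11. Rab4a, Rab15, Rab17 and Rab25, of which Rab17 and Rab25 are known from epithelia, had no boundary peak in any list.

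The late endosomal and lysosomal group had boundary peaks at 5 of 12 genes in naive cells, 3 on day 15 and 1 on day 30. Beside these small counts stand the all-gene shares of 34.7%, 29.6% and 12.8%. Rab7, the Rab of late endosomes and phagosome maturation, had 14 tags in the naive list. Rab12, which sends receptors to lysosomes, had 19. Neither had a boundary peak at day 15 or day 30. Rab9, which returns receptors to the trans-Golgi, had 21 tags at day 15 and 16 in the naive list. Rab29, which recruits the kinase LRRK2, had 19 and 17, plus a second boundary peak of 16 tags at day 15. Rab32, of lysosome-related organelles, was the single member in all lists, with 36, 26 and 19 tags in the naive, day 15 and day 30 lists. Rab7b, Rab9b, Rab20, Rab24, Rab34, Rab36 and Rab38 had no boundary peak.

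Rabs of the endoplasmic reticulum and Golgi were present at 11 of 14 genes in the naive and day 15 lists and at 5 at day 30. Rab1a, which governs transport out of the endoplasmic reticulum, had 32, 37 and 21 tags in the naive, day 15 and day 30 lists, while its paralog Rab1b had 13 tags at day 15 and 12 in the naive list and none at day 30. Rab2b, of Golgi and autophagosome traffic, had 32, 30 and 16 tags. Rab30, a Golgi Rab, had 38, 36 and 16, and Rab18, of lipid droplets, had 28, 31 and 20. Rab33b, which binds an autophagy factor, had 27, 22 and 15. The others were absent at day 30: Rab2a had 20 tags at day 15 and 19 in the naive list, and in the same order Rab39 had 21 and 21, Rab43 had 18 and 16, and Rab33a had 15 and 17. Rab6a, which moves vesicles from the Golgi, had 21 and 12. Rab6b, Rab19 and Rab39b had no boundary peak.

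In the regulated secretion group the numbers were 5 of 9 genes in naive cells, 4 on day 15 and 1 on day 30. The shares of all genes were 34.7%, 29.6% and 12.8%. The vesicle Rabs Rab3a and Rab3d had 21 and 14 tags at day 15, against 22 and 9 in the naive list. Rab37, known from mast cell granules, had 25 tags at day 15 and 30 in the naive list, and Rab26 had 34, 39 and 13 tags over the 3 lists. The Rab37 and Rab26 peaks were nearest to a neighbour, Slc9a3r1 for Rab37 and Traf7 for Rab26, and need not belong to the Rab gene. Rab27a, which docks lysosome-related secretory granules, had 9 tags in the naive list alone, 477 bp outside the gene. Rab3b, Rab3c, Rab27b and Rab44 had none. Of the remaining members, Rab28, linked to cilia, had 20, 22 and 17 tags, and Rab40c, a subunit of a ubiquitin ligase, had 38, 42 and 28, while Rab23, Rab40b and Rab42 had none.

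The 4 genes seen in the naive list alone had naive pileups of 9 to 19 tags. The median of these 4 was 14, against 12 for all genes with that pattern. The Rab7 peak spanned chr6:88044885-88045470 (mm10) with a fold over local background of 6.36, a peak-caller value of the authors. The nearest peak to a Rab7 end lay 6083 bp away at day 15 and 148006 bp away at day 30. A naive peak 15395 bp from Rab7 (13 tags) was also absent later, while a day 15 peak of 13 tags overlapped the naive peak at chr6:87992896-87993095, which had 9 tags. The Rab12 peak at chr17:66519457-66519833 had a fold of 7.35, and the closest day 15 peak lay 370657 bp away. The Rab31 peak at chr17:65772379-65772775 had a fold of 6.20. Rab31 also had 4 naive peaks inside the gene, with 10, 14, 14 and 10 tags, 1 of which overlapped a day 15 peak, of 19 tags. The Rab27a peak at chr9:73044134-73044333 had a fold of 4.31, and a second naive peak inside the gene, of 20 tags, was also absent at day 15 and day 30. Rab7, Rab12 and Rab31 stayed naive-only with a limit of 500 or 2000 bp and with a −log10 q of at least 5, which removed the Rab27a peak from the naive list. The lowest pileup of any called peak was 6 tags in the naive list and 9 tags in each of the later, deeper lists.

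The promoter windows of Rab7, Rab31 and Rab12, 250 bases before to 50 after the start (RefSeq, GRCm38.p6, the same build as mm10), are shown because their peaks carry the difference between day 15 and naive. They are read 5′ to 3′ along the gene, and capitals mark the words searched on either strand. These were CCAAT, the ETS factor core GGAAGT, its PU.1 form GAGGAAGT, the cAMP response element TGACGTCA, the E-box CACGTG and its lysosomal form TCACGTGA, the AP-1 word TGANTCA, the GC box GGGCGG and GCATGCGC, part of the NRF1 site. The PU.1 form contains the ETS core, and the lysosomal form contains the E-box.
Rab7 (chr6:88045221-88045520, minus strand): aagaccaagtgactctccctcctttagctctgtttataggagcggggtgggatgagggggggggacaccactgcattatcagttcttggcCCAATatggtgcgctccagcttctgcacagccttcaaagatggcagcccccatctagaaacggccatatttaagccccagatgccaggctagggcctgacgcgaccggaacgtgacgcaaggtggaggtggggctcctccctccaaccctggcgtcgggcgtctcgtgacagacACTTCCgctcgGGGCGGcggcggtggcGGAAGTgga
Rab31 (chr17:65772703-65773002, minus strand): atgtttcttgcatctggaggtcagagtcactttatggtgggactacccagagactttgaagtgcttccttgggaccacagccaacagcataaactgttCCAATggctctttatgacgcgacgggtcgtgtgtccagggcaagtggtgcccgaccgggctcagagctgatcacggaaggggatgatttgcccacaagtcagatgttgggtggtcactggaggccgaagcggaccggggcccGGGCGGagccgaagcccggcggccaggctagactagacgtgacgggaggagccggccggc
Rab12 (chr17:66519621-66519920, minus strand): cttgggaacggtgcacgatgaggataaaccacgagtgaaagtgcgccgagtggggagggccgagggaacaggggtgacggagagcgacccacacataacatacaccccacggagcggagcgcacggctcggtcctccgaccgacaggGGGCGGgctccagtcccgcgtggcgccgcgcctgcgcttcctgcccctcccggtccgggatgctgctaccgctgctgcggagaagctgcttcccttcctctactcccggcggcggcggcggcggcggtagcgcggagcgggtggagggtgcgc

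The naive peak covered 250 of the 300 bases at Rab7, 73 at Rab31 and 213 at Rab12. At Rab7 the summit stood at base 235 of the window, while the Rab31 and Rab12 summits lay downstream of it, counted on the same scale at 342 and 330. Rab7 holds CCAAT from base 91, GGAAGT from bases 265 and 292 and GGGCGG from base 276. Rab31 holds CCAAT from base 99 and GGGCGG from base 241, and Rab12 holds GGGCGG from base 148. A word is a description of the letters and no evidence of binding.

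Windows of 3 genes with a boundary peak in all lists are given for comparison, with the same words in capitals. Among such genes with a promoter window they had the highest −log10 p at day 30. Rab18, at 15.8, stood above Rab1a, at 14.4, but had no promoter window.
Rab5a (chr17:53478984-53479283, plus strand): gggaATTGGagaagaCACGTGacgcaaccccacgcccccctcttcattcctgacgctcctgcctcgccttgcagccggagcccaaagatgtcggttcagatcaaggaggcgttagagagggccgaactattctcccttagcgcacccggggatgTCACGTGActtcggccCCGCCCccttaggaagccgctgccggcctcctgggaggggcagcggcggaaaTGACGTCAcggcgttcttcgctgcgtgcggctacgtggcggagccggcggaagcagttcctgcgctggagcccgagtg
Rab40c (chr17:25919665-25919964, minus strand): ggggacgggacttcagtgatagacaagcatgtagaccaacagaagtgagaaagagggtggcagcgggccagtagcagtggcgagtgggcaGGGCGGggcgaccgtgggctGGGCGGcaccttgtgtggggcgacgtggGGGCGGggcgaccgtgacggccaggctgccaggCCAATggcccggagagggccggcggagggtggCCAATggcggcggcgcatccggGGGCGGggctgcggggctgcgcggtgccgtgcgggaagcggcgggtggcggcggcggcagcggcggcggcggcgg
Rab1a (chr11:20201162-20201461, plus strand): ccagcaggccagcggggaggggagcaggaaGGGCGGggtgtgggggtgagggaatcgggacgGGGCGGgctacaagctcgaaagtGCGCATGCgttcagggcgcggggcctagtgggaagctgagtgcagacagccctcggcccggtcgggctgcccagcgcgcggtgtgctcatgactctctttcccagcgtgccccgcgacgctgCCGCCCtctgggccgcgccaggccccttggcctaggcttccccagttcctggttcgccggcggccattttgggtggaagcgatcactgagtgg

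Rab5a carries TCACGTGA from base 155, the core of the element that lysosomal genes share, with CACGTG inside it from base 156. It also carries a second CACGTG from base 16, TGACGTCA from base 223, CCAAT from base 5 and GGGCGG from base 171. Rab40c has GGGCGG from bases 91, 111, 139 and 226 and CCAAT from bases 172 and 204. Rab1a has GCATGCGC from base 86 and GGGCGG from bases 31, 63 and 208. The peaks of all 3 lists covered all 300 bases at Rab5a and Rab1a, and 291, 272 and 155 bases at Rab40c in the naive, day 15 and day 30 lists. The Rab5a summit lay at base 278 in naive cells, base 35 on day 15 and base 204 on day 30, within a peak that spanned chr17:53478872-53479844 in naive cells, chr17:53478829-53479584 on day 15 and chr17:53478872-53479748 at day 30.

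Promoter windows were found for 48 of the 59 Rab genes (those of Rab18, Rab26, Rab27b, Rab2a, Rab30, Rab36, Rab37, Rab38, Rab44, Rab4a and Rab7b were not matched), and a gene's outermost window was used. Their median GC content was 61.7%, against 52.7% in all 27025 promoters and 61.7% in 6266 coding genes with a naive boundary peak. The GC box word GGGCGG was in 70.8% of Rab promoters, against 35.9% of all promoters and 68.8% of those with a naive peak. CCAAT was in 47.9%, against 38.0% and 43.6%, and GGAAGT in 27.1%, against 24.1% and 30.7%. The longer PU.1-type word GAGGAAGT was in 4.17%, against 3.25% and 3.05%. TCACGTGA was in 3 Rab promoters, those of Rab5a, Rab21 and Rab24 (6.25%), against 1.00% of all and 2.15% of those with a naive peak. Rab21 and Rab24 had no boundary peak in any list, and the Rab shares here include 16 promoters of such genes. CACGTG was in 10.4%, against 7.24% and 10.8%, TGACGTCA in 4.17%, against 1.85% and 3.83%, GCATGCGC in 4.17%, against 2.80% and 6.34%, and TGANTCA in 4.17%, against 7.92% and 3.94%. Rab promoters were also sorted by the boundary peak pattern of their gene, although the Rab27a, Rab33a and Rab43 windows used here held no peak. CCAAT was in 10 of 14 for genes in all lists and 7 of 14 for those in the naive and day 15 lists. It was in 2 of 4 for genes in the naive list alone and 4 of 16 for genes with no boundary peak. In the same order, GGAAGT was in 4 of 14, 6 of 14, 2 of 4 and 1 of 16, and GGGCGG in 11 of 14, 9 of 14, 4 of 4 and 10 of 16. Each of the other 6 words was in at most 5 Rab promoters in all. These counts are small and were not tested.

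Rab genes with a peak tended to have strong ones: the median naive −log10 p was 18.5 (5.87 to 42.6), against 15.2 over all genes that had one. Pileup in the naive list differed by pattern. The median was 34 tags (20 to 53) for Rab genes in all lists, against 29 for all genes of that pattern. It was 16 (9 to 30) for those in the naive and day 15 lists, against 17. Genes of equal naive −log10 p were therefore compared, in deciles of all genes that had a naive boundary peak. At the rates of their deciles, 30.7 of the 37 Rab genes (82.9%) would have been kept at day 15 and 16.1 (43.6%) at day 30, where 33 and 17 were kept. Among the 16 Rab genes of the lower 5 deciles, 12 were kept at day 15 and 1, Rab28, at day 30. Among the 21 of the upper 5 deciles, 21 were kept at day 15 and 16 at day 30. Of the 4 genes lost at day 15, Rab27a was in decile 1, Rab7 and Rab31 in decile 3 and Rab12 in decile 5, where 39.6%, 64.7% and 83.4% of other genes were kept.

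**Figure D2:**
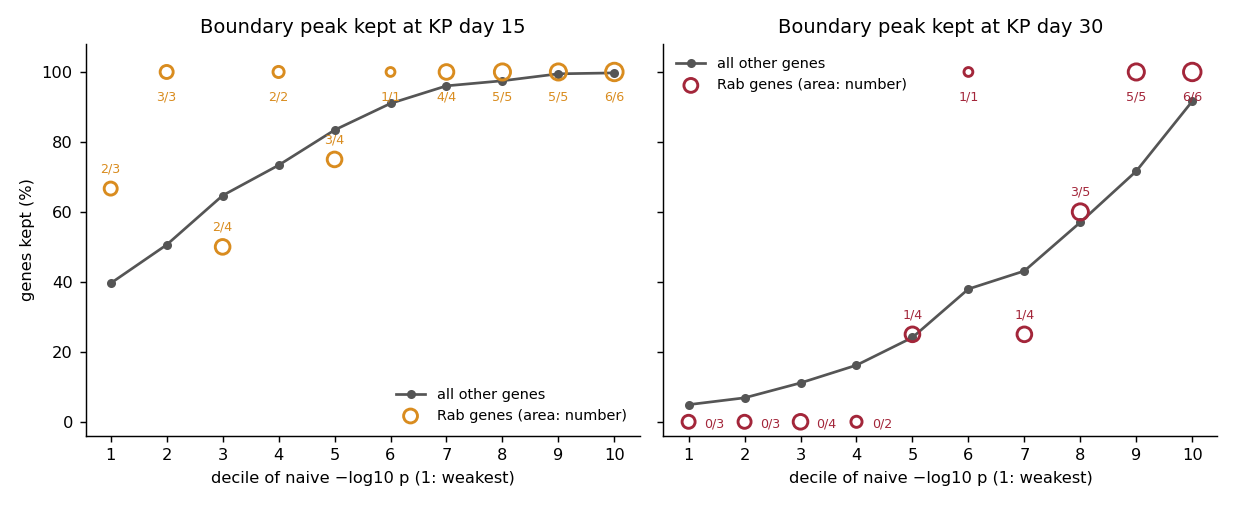
Share of genes (%, y axis) with a naive boundary peak that still had one at day 15 (left) and day 30 (right), by decile of naive −log10 p (x axis, 1 the weakest); circles are Rab genes, with kept over total beside them and area following the number of genes, and the line is all other genes. In the line the share kept runs from 39.6% to 99.7% at day 15 and from 4.90% to 91.6% at day 30, and 33 and 17 of the 37 Rab genes were kept.

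Among kept Rab genes, the pileup at day 15 divided by that in the naive list, each first divided by its list's depth, had a median of 0.461, against 0.439 for all 6042 kept genes. It was below 1 at 33 of 33 Rab genes and at 99.6% of all kept genes. Without scaling by depth the direction was the other way, with a median of 1.10 at Rab genes and 1.05 at all kept genes, and 21 of the 33 Rab ratios were above 1. Both scalings place the Rab median close to that of all genes, which moved with the scaling as a whole. The depth-scaled ratio ranged among Rab genes from 0.303 at Rab32 to 0.763 at Rab11a, with Rab6a at 0.734, Rab8a at 0.522, Rab5a at 0.340 and Rab5b at 0.323. The ratio was lower where the naive peak was stronger, in all genes as well: the median over all kept genes was 0.699 in the weakest naive decile and 0.344 in the strongest, where the 6 Rab genes had 0.369. The naive pileup is the divisor of the ratio and also enters the −log10 p that sets the decile, so ratio and decile are not independent. A gene enters this comparison only if a peak was called again at day 15, which sets a floor on the ratio of genes with few naive tags, such as Rab11a (11) and Rab6a (12).

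**Figure D3:**
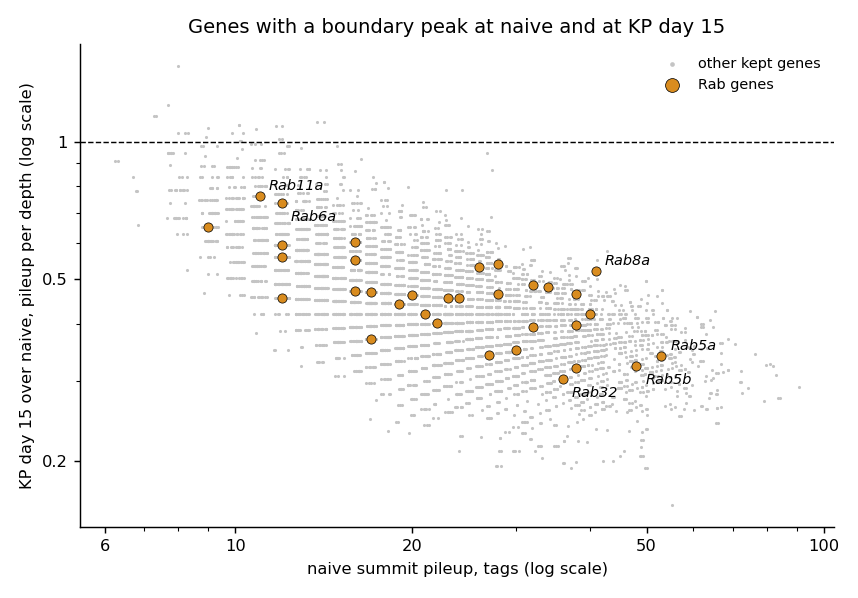
Depth-scaled pileup ratio of day 15 over naive (y axis, log scale) against naive summit pileup in tags (x axis, log scale) for genes with a boundary peak in both lists; orange points are the 33 Rab genes, grey points all other kept genes, and the dashed line is a ratio of 1. The Rab points run from 0.303 (Rab32) to 0.763 (Rab11a), all below the line, and lie among the grey points.

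At day 30 the depth-scaled ratio over naive had a median of 0.265 at the 17 kept Rab genes, against 0.290 for all kept genes, and ranged from 0.182 at Rab26 to 0.405 at Rab28. Without depth scaling the median was 0.556, against 0.607 for all kept genes, and 0 of 17 Rab ratios were above 1. Day 30 over day 15 gave 0.645 at Rab genes, against 0.700 for all kept genes, again with Rab26 lowest (0.379) and Rab28 highest (0.879). Rab5a, Rab32 and Rab33b were also high here, at 0.820, 0.831 and 0.775.

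Counting peaks by the nearest protein-coding gene end within 50 kb, 59 naive, 47 day 15 and 18 day 30 peaks were assigned to Rab genes (41, 38 and 18 genes). This is 1.00, 0.797 and 0.305 peaks per Rab gene, against 0.623, 0.473 and 0.156 per gene over all genes. Of the Rab-assigned peaks 24, 15 and 2 were not boundary peaks. Of the 24 such naive peaks, 13 (54.2%) overlapped a day 15 peak, against 54.9% of such peaks at all genes, and 2 (8.33%) overlapped a day 30 peak, against 11.7%. With lists of equal length the numbers of assigned peaks were 18, 19 and 18.

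The 2 non-boundary peaks present in every list belonged to Rab20 and Rab2a. Rab20, which promotes phagosome maturation in macrophages, had no boundary peak, but a peak inside the gene at chr8:11463792-11464731 in naive cells had 45 tags there, 54 on day 15 and 25 on day 30. Another inside the gene, at chr8:11476827-11477100, had 22 tags at day 15 and 19 in the naive list. The Rab2a peak lay 39381 bp from the gene, at chr4:8647083-8647721, with 44 tags in naive cells, 34 on day 15 and 18 on day 30. Peaks seen at day 15 and in the naive list were one 16240 bp from Rab6a (20 and 21 tags), one inside Rab8b (18 and 19), one inside Rab3d (16 and 15), one inside Rab6b (13 and 15) and one inside Rab7b (20 and 12), whose product acts between late endosomes and the Golgi. Rab10 had day 15 peaks of 17 and 10 tags that overlapped naive peaks of 12 and 7 tags, 11796 and 26183 bp from the gene.

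Peaks at day 15 with no naive overlap were a peak of 19 tags inside Rab37 and one of 12 tags 8147 bp from Rab1a, besides the second Rab29 boundary peak. Naive peaks inside or near Rab genes with no later overlap included those inside Rab32 (19 tags), Rab14 (15 tags), Rab5a (10 tags) and Rab28 (10 tags), and those outside Rab19 (13 tags, 1080 bp) and Rab3c (14 tags, 35484 bp).

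**Figure D4:**
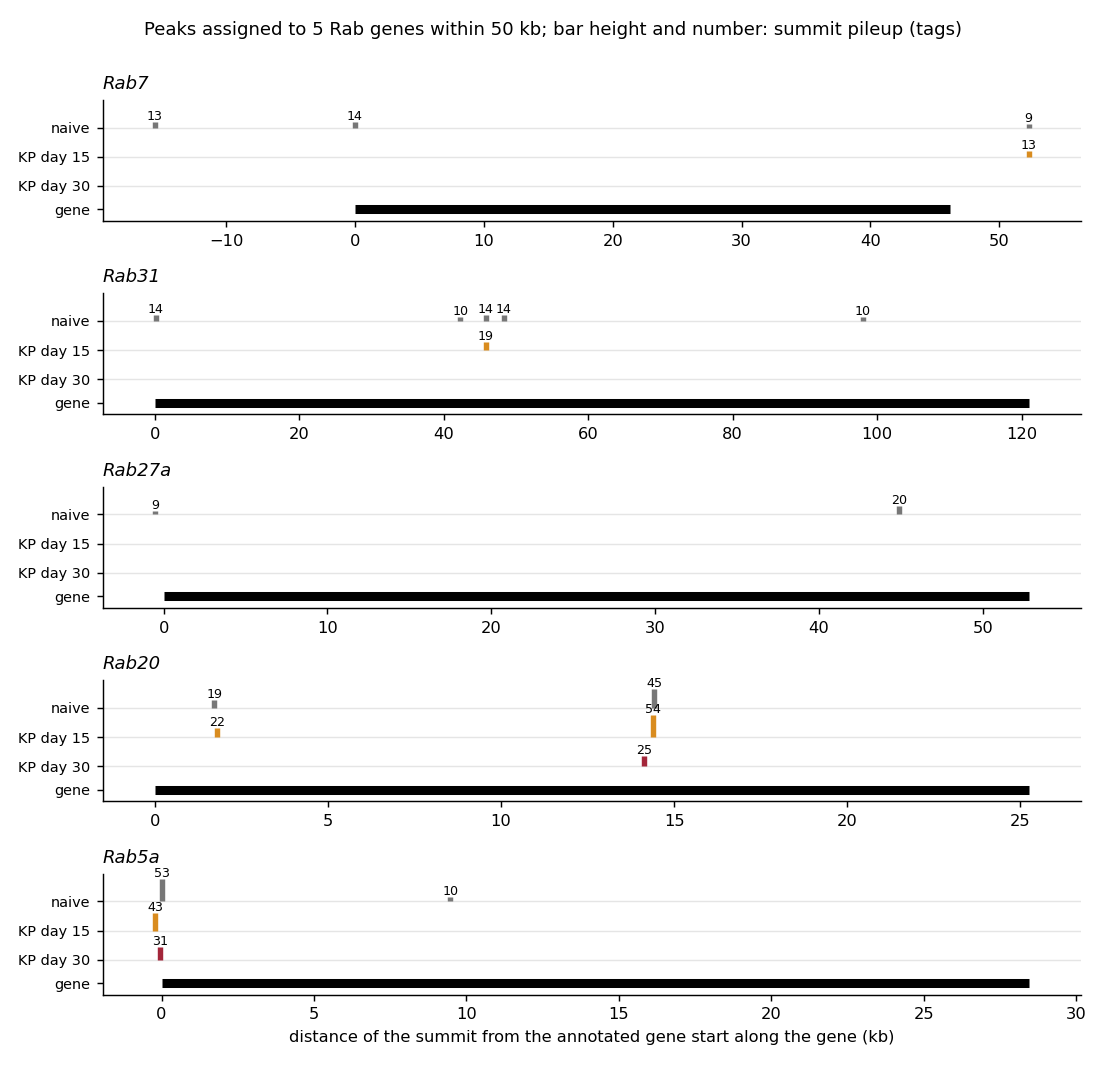
Peaks assigned to Rab7, Rab31, Rab27a, Rab20 and Rab5a, drawn at the distance of the summit from the annotated gene start (x axis, kb along the gene, black bar the gene), in the naive, day 15 and day 30 lists; bar height and the number above it are the summit pileup in tags. The naive peaks at the starts of Rab7, Rab31 and Rab27a (14, 14 and 9 tags) have none below them in the later lists, while the Rab20 peak inside the gene (45, 54 and 25 tags) and the Rab5a start peak (53, 43 and 31 tags) are in every list.

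At 9 of the 37 Rab genes in the naive list the boundary peak also lay within 1000 bp of another protein-coding gene, namely at Rab13 (Rps27), Rab4b (Mia), Rab6a (Mrpl48), Rab5b (Pmel), Rab37 (Slc9a3r1), Rab2b (Tox4), Rab26 (Traf7), Rab1b (Klc2) and Rab33a (Aifm1). The same 9 shared their peak at day 15 and 4 of them, Rab4b, Rab5b, Rab2b and Rab26, at day 30. None of the 4 naive-only genes was among them. Paralogs often differed in pattern. Of the 14 Rab numbers with several members (31 genes), only Rab5 had the same pattern in all of them, and in 8 some members had a boundary peak and some had none. Rab1a, Rab8a, Rab11b, Rab2b and Rab33b were in all lists, while their partners Rab1b, Rab8b, Rab11a, Rab2a and Rab33a were absent at day 30. Naive pileups were higher in the partner that was kept in each of these pairs, at 32 against 12, 41 against 16, 40 against 11, 32 against 19 and 27 against 17 tags.

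Genes that regulate Rabs or act for them, 117 in all, had one in 67 cases in naive cells, 56 on day 15 and 21 on day 30 (57.3%, 47.9% and 17.9%, against 34.7%, 29.6% and 12.8% of all genes). At day 15, 52 of the 67 were kept (77.6%, against 79.6% of all genes), and 15 were lost. Of the 50 without a naive boundary peak, 4 gained one (Tbc1d22a, Tbc1d30, Sgsm2 and Ankfy1), which is 8.0%, against 3.04% of all genes. At day 30, 21 were kept (31.3%, against 36.5% of all genes), 46 were lost and 0 were gained, against 0.245%.

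Of 8 genes for lipid anchoring and membrane recycling, 5, 4 and 1 had a boundary peak in naive cells, on day 15 and on day 30 (62.5%, 50.0% and 12.5%, beside the all-gene shares of 34.7%, 29.6% and 12.8%). Rabggtb, the catalytic subunit of the Rab prenyl transferase, was in all of them with 21, 30 and 20 tags. Gdi2, a GDP dissociation inhibitor, had 14 tags at day 15 and 21 in the naive list. Of 28 activators, 18, 13 and 6 were present (64.3%, 46.4% and 21.4%). Rabgef1, which loads Rab5, had 32, 35 and 24 tags. Rin3, another Rab5 activator, had 16, 17 and 13 tags. Mon1b, in the complex that activates Rab7, had 79, 51 and 45. Mon1a and Ccz1, of the same activator complex, had 14 and 18 tags at day 15, against 17 and 12 in the naive list, and none at day 30. In the naive list alone were 5 genes of the activator list, among them Rin2, Rab3gap1 and Madd with 12, 14 and 15 tags. Rab3gap1 and Rab3gap2 are named after GTPase-activating proteins for Rab3, but both were placed in the activator list.

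Of 30 GTPase-activating proteins, 16, 17 and 8 were present (53.3%, 56.7% and 26.7%, beside the all-gene shares of 34.7%, 29.6% and 12.8%). At day 15, 14 of 16 were kept (87.5%, against 79.6% of all genes), and 3 of the 14 without a naive boundary peak gained one (21.4%, against 3.04% of all genes). Evi5l had 67, 58 and 35 tags and Rabgap1 19, 17 and 12, and Usp6nl, which switches off Rab5, had 16, 22 and 12. Tbc1d2 and Tbc1d15 act on Rab7. Tbc1d2 had 19 tags at day 15 and 9 in the naive list, and Tbc1d15 had 16 in the naive list alone. Of 47 effectors, 25, 21 and 6 were present (53.2%, 44.7% and 12.8%). Eea1 and Appl1, which bind Rab5 on early endosomes, had 32, 30 and 16 tags and 25, 22 and 11 tags. Rab11fip1, which binds Rab11, had 28, 33 and 21. Pik3r4, a subunit of the lipid kinase that acts with Rab5, and Vps39 and Vps8, of the tethering complexes of late and early endosomes, had 12, 12 and 13 tags in the naive list alone. Rbsn, which binds Rab5 and Rab4, had 20 tags at day 15 and 12 in the naive list, and Ankfy1, a Rab5 effector, had 17 tags at day 15 alone. Of 4 Rab kinase and phosphatase genes, 3, 1 and 0 were present (75.0%, 25.0% and 0%). Among them Lrrk2 had 17 tags at day 15 and 22 in the naive list, Lrrk1 and Tbk1 had 19 and 20 in the naive list alone, and Ppm1h had none.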

How the data were processed

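ATAC-seq peak lists of 11 samples in 3 groups were used, 1 list per group. Bowtie2 2.3.4.1, MACS2 2.1.1 and the mm10 build are named per the submitters' processing notes. Their settings, any read shift for the transposase and any pooling of samples before calling are not given in the sources used here. All 10 columns of the lists carry no header and were read from their values as the authors' score, the deposited fold over background (a ratio), and the authors' −log10 p and −log10 q.

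The whole-number pileup of each summit was recovered from fold and p with a Poisson tail, every p coming back within 0.001 on the −log10 scale. For 49 naive peaks 2 pileups were possible, and the one with a background on a grid of 0.02 tags was taken. The recovery was tested on simulated data. Ratios were scaled by the depth that the lowest background gives for 200 bp tags. Gene ends came from RefSeq (GRCm38.p6) and strand from the RefSeq promoter table. A peak counted as nearest to the gene with the closest end within 50 kb, for each gene where ends tied. A gene's strongest boundary peak gives its pileup.

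With 1 list per group no p-value was computed. Every member is accounted for, and up to 3 regulator genes per list and class were named in list order. The members and the lists were chosen with earlier results of these data known. Protein sequences were not used here. Python 3.11.15, pandas 2.3.3, numpy 2.4.6, scipy 1.17.1 and matplotlib 3.10.9 were used.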

Additional observations from a re-analysis of the deposited data

How the results depend on the processing

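Among the recomputed values 82 stayed within 1.5 times the reported count or within their limit, and 19 moved. Equal list lengths (the top 3352 peaks of every list) moved most: Rab genes with a boundary peak numbered 18 in the naive list and 18 at day 15. At day 15 against naive 16 were kept, 2 lost and 2 gained, at day 30 against naive 3 were lost and 2 gained, and at day 30 against day 15 3 were lost and 2 gained. Peaks nearest to Rab genes numbered 18 and 19 in the naive and day 15 lists. The Rab share stayed above that of all genes at that length (30.5%, 30.5% and 28.8%, against 12.8%, 13.0% and 12.8%). A −log10 q of at least 5 gave 2 genes gained at day 15. Without depth scaling the median pileup ratio was 1.10 at day 15 and 0.556 at day 30, both over naive. With coding genes that have a naive boundary peak in place of all promoters, the Rab share divided by the background share was 1.09 for TGACGTCA, 2.90 for TCACGTGA, 1.06 for TGANTCA, 0.658 for GCATGCGC and 1.03 for GGGCGG. The sets are unlike: the Rab share was over all 48 promoters, including 16 of genes with no boundary peak in any list. Of the 3 Rab promoters with TCACGTGA, 2 were of such genes. Limits of 500 and 2000 bp for boundary peaks, windows of 20 and 100 kb, promoter windows alone, an overlap of 50%, quintiles, and tied peaks left out (chosen after seeing the data) moved no value by that much. Rab26 dropped out at 500 bp, and Rab19, Rab20, Rab21 and Rab40b entered at 2000 bp. No paired analysis was possible because each group has 1 list, in which the samples' replicate numbers do not appear. For the same reason no replicate could be left out. Whether a peak missing from a list lay just under the peak caller's limit cannot be read from lists of called peaks alone.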
